A study of Mus musculus with 27 samples.

Results

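Organoids grown from the jejunum of ethanol-fed mice were set against whole jejunum tissue of ethanol-fed mice, with 4 libraries of each, 8 of the 27 libraries of the series. The libraries were chosen by their labelled treatment, segment and material, and no measured value entered the choice. The organoids were 3-dimensional cultures from jejunum of the inbred mouse strain C57BL/6, from animals that had received 15% ethanol for 8 weeks. The tissue was jejunum, the stretch of small intestine between duodenum and ileum, from C57BL/6 mice under the same ethanol treatment. For a test of whether the difference was the same without ethanol, 4 organoid and 3 tissue libraries of jejunum from C57BL/6 mice given water for 8 weeks were used. The labels give no age or sex, state no ethanol in the culture medium, and describe the organoid cultures by reference to the crypt culture method of Sato and Clevers. Polyadenylated RNA was counted from its 3' end with the Lexogen QuantSeq kit, so that 1 transcript gives about 1 tag whatever its length.

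The small intestinal wall is an epithelium folded into villi and crypts, over a connective tissue that carries vessels, nerves and immune cells, inside layers of smooth muscle. Stem cells at the crypt base renew the epithelium. Their daughters divide, then become absorptive enterocytes, which move up the villus, or secretory cells: Paneth cells, which stay in the crypt and release antimicrobial peptides, goblet cells, which release mucus, enteroendocrine cells, which release hormones, and chemosensory tuft cells. In crypt culture the epithelium grows alone in a gel of basement membrane proteins, and the growth factors that the wall normally provides are added to the medium. Tissue of the gut also meets food, bile, microbes and the signals of immune cells, none of which is part of such a culture.

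Depth and makeup differed between the groups before any gene was tested. Rn45s, the precursor of ribosomal RNA, took 24.0 ± 4.21% of all counts in the organoids and 63.6 ± 12.3% in tissue (SD, n = 4 each, two-sided exact permutation p = 0.0286, the smallest that 4 against 4 can give), and it was left out of the totals. The other genes had 3033578 to 5087766 counts per library in the organoids and 2099739 to 7606668 in tissue. At least 1 count was found for 13059 ± 209 genes per organoid library and 14324 ± 939 per tissue library (exact permutation p = 0.0286). The organoid libraries resembled each other more closely (Spearman correlation across genes 0.979 to 0.990) than the tissue libraries did (0.914 to 0.965), and an organoid and a tissue library correlated at 0.660 to 0.732. The first principal component, with 83.9% of the variance, separated the materials, and the second, with 6.97%, set tissue library 1 apart. Tissue libraries 3 and 4 also differed from tissue libraries 1 and 2 in Fabp6, the bile acid binding protein of the distal small intestine, which had 3.71, 1.43, 3.87 and 11.1 CPM (counts scaled to a common library total outside Rn45s, with edgeR's TMM factors) in the organoids, against 3.47, 0.875, 1176 and 1701 CPM in tissue. No label gives the position along the jejunum, so the numbers of called genes are also given without these libraries. The labels give separate donor numbers to the libraries of a group, but nothing states that equal numbers in organoids and tissue are 1 animal.

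A gene was called at a Benjamini-Hochberg adjusted p under 0.05 in edgeR's quasi-likelihood test of the 8 libraries. Of 11135 genes tested, 3818 (34.3%) were higher and 3683 (33.1%) lower in the organoids, and 1835 (16.5%) and 1989 (17.9%) differed by more than 2-fold in edgeR's test against that size. Below, a value with ± in parentheses that carries no unit is a log2 fold change of organoids over tissue with its standard error. In all, 67.4% were called in either direction, and the ranges of the groups were apart for 62.8%. The median log2 fold change of organoids over tissue was 0.07 over all genes. It moved to 0.36 when libraries were scaled by their totals alone, and the split became 4717 higher and 2995 lower. Without tissue library 1, 4003 genes were higher and 3966 lower, and without tissue libraries 3 and 4 together, 3573 were higher and 3371 lower (an alternative chosen after seeing the data).

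**Figure D1:**
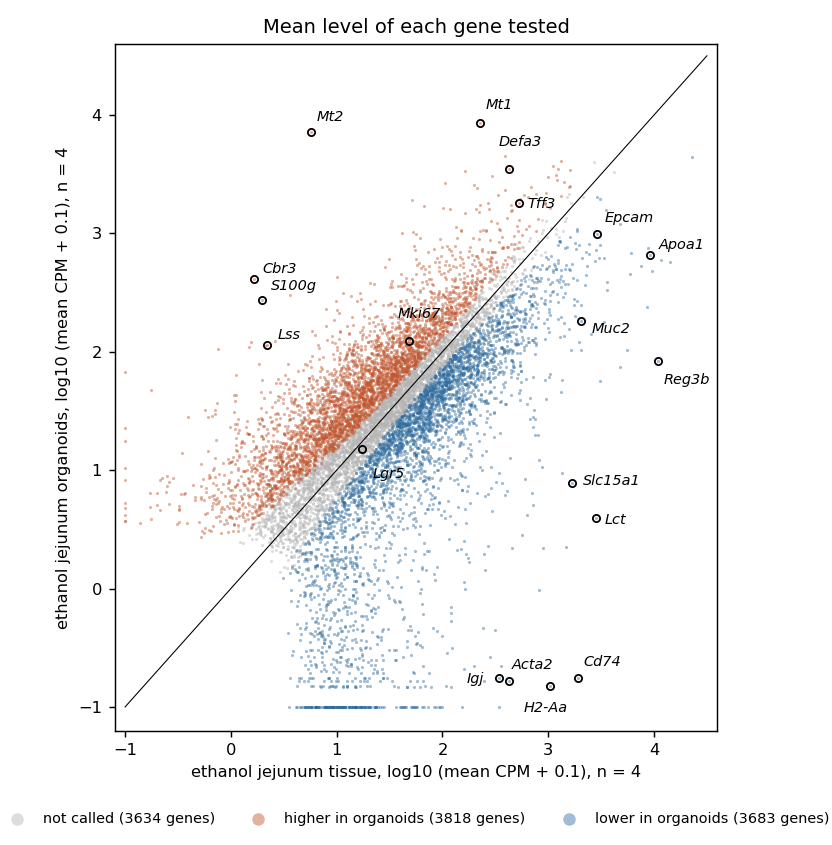
Mean level of each of the 11135 genes tested, as log10 of mean CPM + 0.1, in ethanol jejunum organoids (vertical axis) and tissue (horizontal axis), n = 4 libraries each, coloured by the edgeR call. Named genes are circled: Mt2, Cbr3 and S100g lie far above the line of equal level, and Cd74, H2-Aa and Acta2, each with 1 count in all organoid libraries, lie at the bottom right.

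The largest differences had opposite kinds of genes at their ends. Among called genes with ranges apart and at least 50 CPM in the higher group, the 10 lowest fold changes included those of Cd74, H2-Aa, Sparcl1, Rhoj, Acta2, Igj, Slc5a12, Fabp4 and Apol9b. They comprise antigen presentation (Cd74, H2-Aa), smooth muscle actin (Acta2), the joining chain of secreted antibodies (Igj, also named Jchain), the fatty acid binding protein of endothelium and fat (Fabp4), and a lactate transporter of the absorptive epithelium (Slc5a12). Sparcl1, a matrix protein of mesenchyme and vessels, had no count in the organoids, against 219.7, 124, 574 and 438 CPM in tissue, which makes it at least 1979-fold lower in the organoids (floor of 3 counts over the group). Rhoj, a GTPase of endothelial cells, likewise had no count in the organoids and was at least 887-fold lower. The 10 highest included Mt4, Mt2, Cbr3, Gsta2, S100g, Gsta3, Akr1b8, 2610528A11Rik and Rgn. Mt2 and Mt4 encode metal-binding metallothioneins, and Cbr3, Gsta2, Gsta3 and Akr1b8 encode enzymes that reduce or conjugate reactive compounds. S100g encodes the calcium-binding protein calbindin of the absorptive cell. Cbr3, a carbonyl reductase (chromosome 16, 93683215 to 93690990, GRCm38), had 476, 339, 441 and 398 CPM in the organoids, against 1.98, 2.04, 0.492 and 1.64 CPM in tissue. Every organoid library lay far above every tissue library, by 8.09 ± 0.31 on the log2 scale (edgeR adjusted p = 1.73e-09).

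Acta2, Col1a1, Plvap and other defining transcripts of smooth muscle, connective tissue and vessels were at or near 0 in the organoids, while some members of the same lists were not, such as Mylk, a myosin kinase (116 ± 9.36 CPM in the organoids and 518 ± 197 CPM in tissue). Of 20 smooth muscle markers, 19 passed the filter on low counts and 18 of these were lower in the organoids, against 33.1% of all genes tested. A member with no or few counts in the organoids can pass the filter only through tissue, which fixes its direction. The counts of this list, and of the lists of other cell types outside the epithelium that follow, are therefore descriptions with no test. Acta2, smooth muscle actin (chromosome 19, 34241090 to 34255590), had 0, 0, 0 and 0.258 CPM in the organoids, against 200.3, 99.2, 913 and 476 CPM in tissue. The single count in the 4 organoid libraries makes the ratio of tissue to organoids 7392 (95% interval 1327 to 291969), an exact Poisson interval that covers counting error only. The myosin of smooth muscle, Myh11, had 0.186, 0, 0.298 and 0 CPM in the organoids, against 141, 81.95, 385 and 186 CPM in tissue (log2 fold change -10.43 ± 0.71, edgeR adjusted p = 5.49e-08). The tissue libraries differed widely among themselves: the list summed to 202 to 237 CPM in the organoids, mostly from Mylk and Csrp1, and to 1299 to 4932 CPM in tissue. Csrp1, an actin-bundling LIM protein that epithelium also uses, was the 1 tested member not called (70.4 ± 10.2 CPM in the organoids and 73.5 ± 57.1 CPM in tissue, SD, n = 4 each). Tissue libraries 3 and 4 held most of it, and without both it was higher in the organoids by 1.32. In bulk RNA, fewer cells of a type and less RNA per cell cannot be told apart.

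The connective tissue, vessels and nerves showed the same picture. Of 22 genes of collagens and the extracellular matrix, 19 passed the filter and all 19 of these were lower. Col1a1, the main collagen of fibroblasts, had 0, 0, 0.596 and 0 CPM in the organoids, against 19.8, 6.42, 36.4 and 31.9 CPM in tissue. Fbn1, which encodes the microfibril protein fibrillin, had no count in the organoids, against 129, 35.3, 80.2 and 86.99 CPM in tissue, and was at least 485-fold lower. The groups were apart for both genes. Of 9 tested endothelial markers, 7 were lower, among them the receptors Flt1 (at least 309.8-fold) and Kdr (at least 133-fold) for vascular growth factor, and Plvap, a protein of the endothelial diaphragm (0.121 ± 0.147 CPM in the organoids and 65.4 ± 17.5 CPM in tissue). Pecam1, an adhesion molecule of endothelium, had 0.371, 1.02, 0 and 0 CPM in the organoids, against 10.4, 9.92, 14.02 and 21.9 CPM in tissue. Lyve1, a receptor for hyaluronan on lymph vessels, went the other way with 15.8, 12.1, 7.15 and 8.77 CPM in the organoids, against 2.98, 3.21, 7.38 and 7.61 CPM in tissue, and these ranges overlapped (log2 fold change 0.99 ± 0.39, edgeR adjusted p = 0.0373). Lyve1 was not called without organoid library 1, 2 or 4 or tissue library 1 or 2, adjusted p up to 0.178. Of 8 tested fibroblast and telocyte markers, 6 were lower and 1, Cd81, was higher. Cd81 encodes a tetraspanin that epithelial cells also carry (256 ± 17.8 CPM in the organoids and 67.2 ± 20.4 CPM in tissue). Vim, the filament protein of mesenchymal cells, had 5.38, 8.17, 5.06 and 4.39 CPM in the organoids, against 17.9, 14.9, 46.98 and 48.5 CPM in tissue, so that a low level remained in every culture. All 5 tested markers of enteric neurons and glia were lower, with Uchl1, a neuronal deubiquitinase, at 0.0464 ± 0.0928 CPM in the organoids and 77.7 ± 34.8 CPM in tissue. Of 5 tested markers of the interstitial cells of Cajal, the pacemakers of the muscle, 3 were lower, while Kit (log2 fold change -0.60 ± 0.34) and Ano1 (1.24 ± 0.61) were not called. Kit was called without tissue library 2, adjusted p = 0.00583. Cidec and Fabp4 were lower of the markers of fat and mesothelium, and Beta-s, an adult beta globin, was lower of those of blood (0.149 ± 0.194 CPM in the organoids and 35.3 ± 9.95 CPM in tissue). Clps and Cela1, the 2 tested markers of exocrine pancreas, were higher in the organoids. Clps, a lipase cofactor, is also made by Paneth cells. Of the 10 members of that list in the table, 6 had no count in any organoid library and 8 had none in any tissue library. Cpa1, Prss2, Pnlip and Amy2a5 had no count in any of the 8 libraries.

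Ptprc, Gzma, C1qa and other defining transcripts of leukocytes were likewise at or near 0 in the organoids. Of 17 markers of T cells and intraepithelial lymphocytes in the table, 13 had no count in any culture, and the 9 that passed the filter, which they could only do through tissue, were lower. Gzma, a protease of cytotoxic cells, had no count in the organoids, against 26.8, 70.3, 68.9 and 101 CPM in tissue, and was at least 390.4-fold lower. Ptprc, the surface protein CD45 of all leukocytes, had 0.371, 0, 0 and 0.258 CPM in the organoids, against 5.45, 19.5, 18.9 and 21.2 CPM in tissue. Of 13 tested macrophage and dendritic cell markers, 12 were lower, for example the complement component C1qa (0.0511 ± 0.102 CPM in the organoids and 109 ± 27.2 CPM in tissue), and Cd14 was not called (log2 fold change 0.50 ± 0.54). That list still summed to 55.5 to 77.9 CPM in the organoids, against 289 to 497 CPM in tissue. Plasma cell genes were among the strongest in tissue: Igj had 0, 0, 0.298 and 0 CPM in the organoids, against 248, 379, 231 and 506 CPM in tissue, and Mzb1, a chaperone for antibody assembly, was at least 331-fold lower. Xbp1, in the same list and a factor of all secretory cells, was higher (log2 fold change 1.09 ± 0.19), and made up most of the 246 to 294 CPM of that list in the organoids. None of the 12 mast cell and granulocyte markers in the table passed the filter.

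Antigen presentation through MHC class II displays peptides to helper T cells. Professional antigen-presenting cells carry it at all times, and intestinal epithelium takes it up in response to interferon gamma, through the master activator Ciita. All 9 tested members were lower in the organoids. Of the 10 members in the table, 2 had no count in any organoid library. Members with no or few counts there pass the filter only through tissue, so this count is a description with no test. Cd74, the invariant chain that guides class II molecules, had 0, 0, 0.298 and 0 CPM in the organoids, against 1467, 1281, 1831 and 3009 CPM in tissue, or 1 count against 34961. H2-Aa, an alpha chain of class II (chromosome 17, 34282744 to 34287823), had 0, 0.204, 0 and 0 CPM in the organoids, against 587, 915, 1555 and 1115 CPM in tissue. H2-Ab1, its partner beta chain, had 3.15, 0.409, 2.98 and 2.06 CPM in the organoids, against 836, 1292, 2106 and 1694 CPM in tissue. For each of these 3 genes every tissue library lay far above every organoid library. H2-DMb1, a subunit of the peptide loader, had 0.186, 0.204, 0.298 and 0.774 CPM in the organoids, against 229, 127, 261 and 347 CPM in tissue (log2 fold change -9.33 ± 0.45, edgeR adjusted p = 5.27e-09). Ciita itself had no count in the organoids, against 8.43, 5.25, 8.61 and 8.5 CPM in tissue. Rfx5, a DNA-binding factor that class II promoters need but that is made in most cells, had 10.02, 17.4, 13.1 and 13.9 CPM in the organoids, against 23.3, 25.4, 20.9 and 23.1 CPM in tissue, a much smaller gap (log2 fold change -0.77 ± 0.23). The leukocyte genes above were lower in the same libraries, and their part in the class II levels was not tested.

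The promoters of class II genes carry a shared set of short elements, of which the Y box, GATTGG, is one. The 250 bases before the start site are shown for 3 of the lower members, which were picked by hand and not by the size of their gap. Capitals mark GATTGG or its reverse complement (RefSeq, GRCm38.p6, each 5' to 3' in the direction of the gene).
H2-Aa (chr17:34287824-34288073, minus strand): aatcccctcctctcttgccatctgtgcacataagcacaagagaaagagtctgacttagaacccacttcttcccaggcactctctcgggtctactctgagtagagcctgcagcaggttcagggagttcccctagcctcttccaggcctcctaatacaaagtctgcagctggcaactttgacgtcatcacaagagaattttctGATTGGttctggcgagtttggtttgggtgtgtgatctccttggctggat
H2-Eb1 (chr17:34305617-34305866, plus strand): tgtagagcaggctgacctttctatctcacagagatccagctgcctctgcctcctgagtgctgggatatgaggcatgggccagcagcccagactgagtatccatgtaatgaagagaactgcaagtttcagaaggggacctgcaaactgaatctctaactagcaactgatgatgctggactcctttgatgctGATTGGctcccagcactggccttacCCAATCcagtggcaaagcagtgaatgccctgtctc
H2-DMb1 (chr17:34152941-34153190, plus strand): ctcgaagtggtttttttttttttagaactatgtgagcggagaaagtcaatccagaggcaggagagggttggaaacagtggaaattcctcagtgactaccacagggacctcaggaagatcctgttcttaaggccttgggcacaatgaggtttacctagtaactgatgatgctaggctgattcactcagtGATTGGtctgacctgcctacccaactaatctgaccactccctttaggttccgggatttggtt
The element began 49 bases before the start site of H2-Aa, 62 before that of H2-DMb1, and at 60 and, on the other strand, 35 before that of H2-Eb1. It was found in 6 of the 7 class II genes of the list that matched a promoter entry, and in 14.6% of all 32851 promoters of this length. A match is a description of the letters and shows no binding.

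Genes induced by interferon, which alert cells to viruses and bacteria, were lower as a whole list: 24 of 24 tested members, with a median log2 fold change of -4.99 against 0.07 over all genes. Of the 27 members, 5 had no count in any organoid library. Such members pass the filter only through tissue, which fixes their direction, so the count is a description with no test. The part of leukocytes in these levels was not tested. Tap1, the pump that loads peptides onto MHC class I, had 12.6, 12.1, 14.6 and 9.55 CPM in the organoids, against 1357, 456, 778 and 701 CPM in tissue. Irf1, the transcription factor that interferon gamma induces, had 36.4, 40.7, 51.5 and 55.7 CPM in the organoids, against 1442, 1020.2, 1464 and 1307 CPM in tissue (log2 fold change -4.83 ± 0.23, edgeR adjusted p = 5.2e-09). Igtp, a GTPase against intracellular pathogens, had 0.742, 0.409, 0.298 and 0 CPM in the organoids, against 39.7, 44.6, 169 and 72.5 CPM in tissue. Every organoid library was below every tissue library for these 3 genes. The smallest gap of the list belonged to the antiviral enzyme Oas1a (8.21 ± 1.91 CPM in the organoids and 21.8 ± 2.5 CPM in tissue, log2 fold change -1.43 ± 0.25). Of 13 tested chemokines and NF-kB feedback genes, 11 were lower and none higher, including the inhibitor Nfkbia (-1.49 ± 0.22) and Cxcl10 (-6.39 ± 0.71), a chemokine for T cells. Ccl25, the epithelial chemokine that draws lymphocytes to the small intestine, was not called (459.8 ± 80.5 CPM in the organoids and 561 ± 108 CPM in tissue). Btnl1, a butyrophilin-like protein by which enterocytes keep gamma-delta T cells, had 86.8, 102, 86.4 and 58.1 CPM in the organoids, against 202, 549, 479.7 and 326 CPM in tissue, and was lower (log2 fold change -2.22 ± 0.29), as were 3 more of the 5 tested members of its list.

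**Figure D2:**
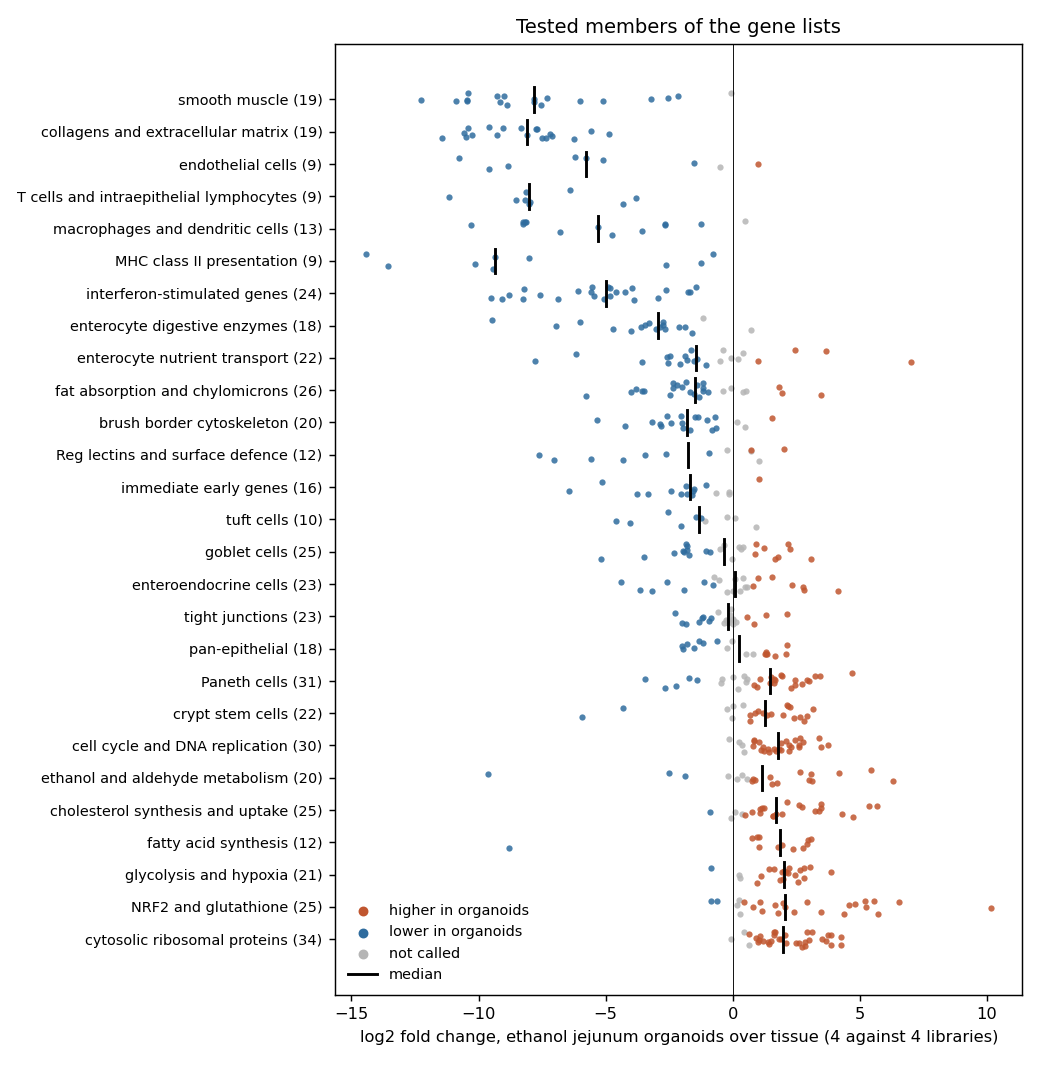
Log2 fold change of organoids over tissue for each tested member of 27 gene lists, with the number tested in parentheses and the median as a black bar. Lists of the wall, of class II and of interferon lie to the left, and lists of the cell cycle, glutathione and ribosomal proteins to the right, with epithelial lineages on both sides of 0.

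The epithelium itself was present in both materials. Of 18 pan-epithelial genes, 7 were higher and 7 lower, shares close to the 34.3% and 33.1% of all genes tested. The list as a sum was lower in the organoids, with 7405 to 8325 CPM against 13007 to 14917 CPM in tissue. Epcam, the adhesion molecule that marks epithelium, had 1032, 939, 995 and 1000.1 CPM in the organoids, against 2286, 2861, 3011 and 3291 CPM in tissue (log2 fold change -1.53 ± 0.19, edgeR adjusted p = 7.71e-06). Krt19, a keratin of simple epithelium, went the other way with 1284, 1233, 1348 and 1295 CPM in the organoids, against 623, 454, 417 and 631 CPM in tissue (1.28 ± 0.19). The groups were apart for both. Higher with Krt19 were Cldn3, Cdx1, Cdx2, Ehf, Esrp1 and Prss8, and lower with Epcam were Lgals4, Cldn7, Cdh1, Spint2, Vil1 and Elf3. Cdx1 and Cdx2 are the homeobox factors of intestinal identity.

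Genes of the mature enterocyte were lower. Digestive enzymes of the brush border, the microvillus surface of the enterocyte, were lower for 16 of 18 tested members and higher for none, with a median of -2.92. Lct, the enzyme that splits milk sugar (chromosome 1, 128284756 to 128328318), had 6.49, 4.09, 3.87 and 1.03 CPM in the organoids, against 4376, 3087, 2305 and 1624 CPM in tissue. The highest culture stood far below the lowest tissue library (log2 fold change -9.47 ± 0.50, edgeR adjusted p = 9.06e-09). Anpep, an aminopeptidase, had 64.6, 87.03, 105 and 41.03 CPM in the organoids, against 4388, 3444, 4316 and 6880.1 CPM in tissue. Alpi, intestinal alkaline phosphatase, had 165, 126, 116 and 52.4 CPM in the organoids, against 329.7, 983, 1058 and 721 CPM in tissue. Neither gene's ranges overlapped. The sugar enzyme Sis was an exception with 884, 1147, 910.5 and 334 CPM in the organoids, against 440.3, 472, 367 and 699.8 CPM in tissue, ranges that overlapped (log2 fold change 0.73 ± 0.32, edgeR adjusted p = 0.0571). Sis was called without organoid library 4 or tissue library 4, adjusted p up to 0.0308, then as higher in the organoids.

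Nutrient transporters were mixed, with 13 of 22 tested members lower and 4 higher. Slc15a1, the peptide transporter, had 7.98, 7.56, 12.5 and 2.84 CPM in the organoids, against 2029, 1308, 1468 and 1930.2 CPM in tissue (log2 fold change -7.77 ± 0.39, edgeR adjusted p = 6.17e-09). Slc5a1, the sodium-glucose transporter, had 898, 742, 557 and 282 CPM in the organoids, against 3240.4, 4586, 2674 and 2989 CPM in tissue. Both were clearly apart, by very different amounts. The 4 that were higher were S100g, Cybrd1, Slc40a1 and Slc3a2 (which was not called without organoid library 1, adjusted p = 0.0601). S100g had 222, 247, 304 and 327 CPM in the organoids, against 0.992, 0.875, 2.95 and 2.69 CPM in tissue (log2 fold change 7.02 ± 0.31). Cybrd1, the iron reductase of the duodenal brush border, had 18.4, 31.3, 20.5 and 7.48 CPM in the organoids, against 1.49, 1.17, 2.21 and 1.19 CPM in tissue, and Slc40a1, the exporter that passes iron to the blood, had 15.03, 14.5, 14.9 and 16.5 CPM in the organoids, against 0.496, 2.62, 2.71 and 4.18 CPM in tissue. These are genes of calcium and iron uptake, and all 3 were apart between the groups.

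Fat absorption was lower for 19 of 26 genes and higher for 3. Apoa1, an apolipoprotein of lipoprotein particles, had 612, 636, 901 and 463 CPM in the organoids, against 6385, 10253, 11493 and 8695 CPM in tissue (-3.82 ± 0.28). Apoc3 (-5.76 ± 0.48), the cholesterol uptake channel Npc1l1 (-3.99 ± 0.26) and Fabp2 (-3.56 ± 0.54), the intestinal fatty acid binding protein, were lower as well. Apoa4, an apolipoprotein of the villus tip, had 446 ± 192 CPM in the organoids and 2293 ± 1105 CPM in tissue. Fabp1, the liver-type fatty acid binding protein, went the other way with 3185, 3692, 2286 and 652 CPM in the organoids, against 251, 1412, 642 and 455 CPM in tissue. Organoid library 4 was below 1 of the tissue libraries here, so the ranges overlapped (log2 fold change 1.83 ± 0.52, edgeR adjusted p = 0.00694), and without tissue libraries 3 and 4 the adjusted p was 0.0983. The same library was also the lowest culture for Lct, Slc15a1, Alpi and Sis.

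The villus tip and the microvillus cytoskeleton followed. Of 14 villus tip genes, 11 were lower and 1 was higher. Ada, an enzyme of purine breakdown at the villus tip, had 10.02, 5.31, 5.36 and 4.64 CPM in the organoids, against 218, 739.6, 1067 and 812 CPM in tissue, and Krt20, the keratin of mature villus cells, had 166, 205, 192 and 147 CPM in the organoids, against 1807, 4023, 4032 and 3564 CPM in tissue. Tissue library 1 was the lowest of its group for both, and still above all cultures. The nucleotidase Nt5e (-8.91 ± 0.87) and the nucleoside transporter Slc28a2 (-9.12 ± 0.90), which act in the same purine pathway as Ada, were at less than 1 CPM on average in the organoids. Of 20 tested brush border genes, 17 were lower and 1, the myosin Myo1d, was higher (1.54 ± 0.32). Vil1, villin, which bundles the actin core of the microvillus, had 351, 335, 303 and 237 CPM in the organoids, against 675, 1486, 1550.4 and 1132 CPM in tissue (log2 fold change -1.98 ± 0.26), and Espn, espin, another bundler, had 19.9 ± 8.13 CPM in the organoids and 800.3 ± 179 CPM in tissue.

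Genes of dividing crypt cells were higher in the organoids. Of 30 genes of the cell cycle and DNA replication, all of which passed the filter, 26 were higher and none lower, with a median log2 fold change of 1.78. Mki67, the proliferation marker, had 93.3, 147, 146 and 104 CPM in the organoids, against 66.9, 52.8, 26.8 and 44.2 CPM in tissue (log2 fold change 1.38 ± 0.26, edgeR adjusted p = 0.000332). Cdk1, the kinase of mitotic entry, had 159.9, 129, 118 and 185 CPM in the organoids, against 6.94, 13.4, 8.12 and 13.9 CPM in tissue (3.76 ± 0.26). Pcna, the sliding clamp of DNA polymerase, had 97.8, 95.8, 94.7 and 72.3 CPM in the organoids, against 0.496, 7.87, 6.15 and 14.5 CPM in tissue (3.48 ± 0.42). Each organoid library was above each tissue library for all 3. Ccnd1 (-0.15 ± 0.19), Birc5 (0.25 ± 0.26), Mcm2 (0.38 ± 0.30) and Tyms (0.46 ± 0.21) were not called. Tissue library 1 was the highest of its group for Birc5, Mcm2 and Tyms, and without it all 3 were higher in the organoids with adjusted p of 0.00927, 0.0231 and 0.00976.

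Of 22 tested stem cell genes, 16 were higher and 2 lower, with a median of 1.29, yet the best known marker did not differ detectably. Lgr5, the R-spondin receptor of crypt base stem cells (chromosome 10, 115450311 to 115587780), had 12.99, 9.81, 13.998 and 23.7 CPM in the organoids, against 12.4, 12.2, 15.5 and 28.3 CPM in tissue (log2 fold change -0.22 ± 0.34, edgeR adjusted p = 0.586). Its sign turned when libraries were scaled by totals (0.08) and without tissue library 4 (0.16). Library 4 was the highest in both groups. Olfm4, a secreted protein of the same cells, had 33.2, 30.8, 33.7 and 38.96 CPM in the organoids, against 7.44, 6.9995, 2.95 and 3.28 CPM in tissue (2.81 ± 0.31). Ascl2, their master transcription factor, had 40.3, 22.1, 27.996 and 43.6 CPM in the organoids, against 7.44, 4.08, 7.38 and 8.5 CPM in tissue (2.27 ± 0.30). Both were apart between the groups, as was Smoc2 (2.0 ± 0.25). Lrig1, a brake on growth factor receptors that marks a quieter stem cell pool, had 58.3 ± 4.54 CPM in the organoids and 5.92 ± 4.05 CPM in tissue (3.16 ± 0.34). The Wnt targets Axin2 (0.70 ± 0.22, not called without organoid library 4, adjusted p = 0.0534) and Ephb2 (1.22 ± 0.26) were higher. The 2 lower genes were Tnfrsf19, a receptor of the tumour necrosis factor family, with 0, 0, 0 and 0.516 CPM in the organoids, against 9.42, 2.92, 9.84 and 12.5 CPM in tissue, and Nkd1, a feedback inhibitor of Wnt signalling, with 0.186, 0.613, 0.298 and 0.258 CPM in the organoids, against 2.98, 6.9995, 11.3 and 7.16 CPM in tissue.

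Among the sources and receptors of crypt signals, genes were called in both directions. Of 19 Wnt ligands, R-spondins and secreted Wnt inhibitors, 5 passed the filter. Sfrp1, a secreted Wnt trap, had no count in the organoids, against 92.2, 23.04, 40.8 and 57.6 CPM in tissue (at least 312-fold lower), and the mesenchymal ligand Wnt5a had none, against 13.9, 9.04, 16.7 and 20.1 CPM in tissue (at least 87.3-fold lower). Wnt3, the ligand that Paneth cells make, had 7.79, 4.29, 10.1 and 9.55 CPM in the organoids, against 5.45, 3.21, 4.43 and 8.21 CPM in tissue and was not called (edgeR adjusted p = 0.247). Rspo3, the R-spondin of the crypt stroma, did not pass the filter, with 0 CPM in every organoid library and 0, 0.875, 0.492 and 1.34 CPM in tissue. Among 9 tested Wnt receptors, 4 were higher (3 when scaled on the pan-epithelial list, which loses Lrp5) and none lower, against 34.3% and 33.1% of all genes tested. The 4 were Fzd5 (0.96 ± 0.24), Lgr4 (1.25 ± 0.21), Lrp5 (0.59 ± 0.20, not called without organoid library 1, 2 or 3, adjusted p up to 0.143) and Fzd6 (5.05 ± 0.63). Scaled over the jejunum libraries of both treatments, Fzd6 had 5.03 ± 1.05 CPM in the organoids and 0.0995 ± 0.121 CPM in tissue. It could pass the filter only through the organoids, which fixes its direction, and its fold change rests on few tissue counts. Of 14 tested ligands of the BMP, hedgehog, EGF and Notch pathways, 7 were lower and 3 higher, against 33.1% and 34.3% of all genes tested. Bmp4, which mesenchyme sends to hold back division, was at 0.506 ± 0.167 CPM in the organoids and 65.2 ± 7.41 CPM in tissue, and Ihh, the hedgehog ligand of villus epithelium, at 72.1 ± 11.9 CPM in the organoids and 292 ± 75.2 CPM in tissue. The EGF receptor ligands split: Hbegf was lower (-3.38 ± 0.30), while Areg (3.79 ± 0.51) and Btc (2.03 ± 0.41) were higher, and Areg had 126, 64.8, 55.1 and 35.6 CPM in the organoids, against 0, 8.46, 4.18 and 6.12 CPM in tissue. Egf, the factor itself, did not pass the filter, with 0.645 CPM on average in the organoids and 0.26 CPM in tissue. In the Notch pathway, which sets absorptive against secretory fate, the secretory factor Atoh1 was lower (-0.90 ± 0.35), with overlapping ranges (not called without organoid library 2 or 3 or tissue library 3 or 4, adjusted p up to 0.173, and -0.34 without tissue libraries 3 and 4), and Hes6 (0.83 ± 0.17) and the receptor Notch1 (0.72 ± 0.30, not called without organoid library 1, 2, 3 or 4 or tissue library 1, 2 or 3, adjusted p up to 0.169) were higher. With every library kept, Notch1 was also not called with RLE factors, with scaling on the pan-epithelial list, in DESeq2 or in limma-voom, adjusted p up to 0.0826. Of the 10 tested genes of the list of Notch and secretory fate, 2 were higher and 4 lower, against 34.3% and 33.1% of all genes tested. Scaled on the pan-epithelial list, 1 was higher and 5 were lower.

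**Figure D3:**
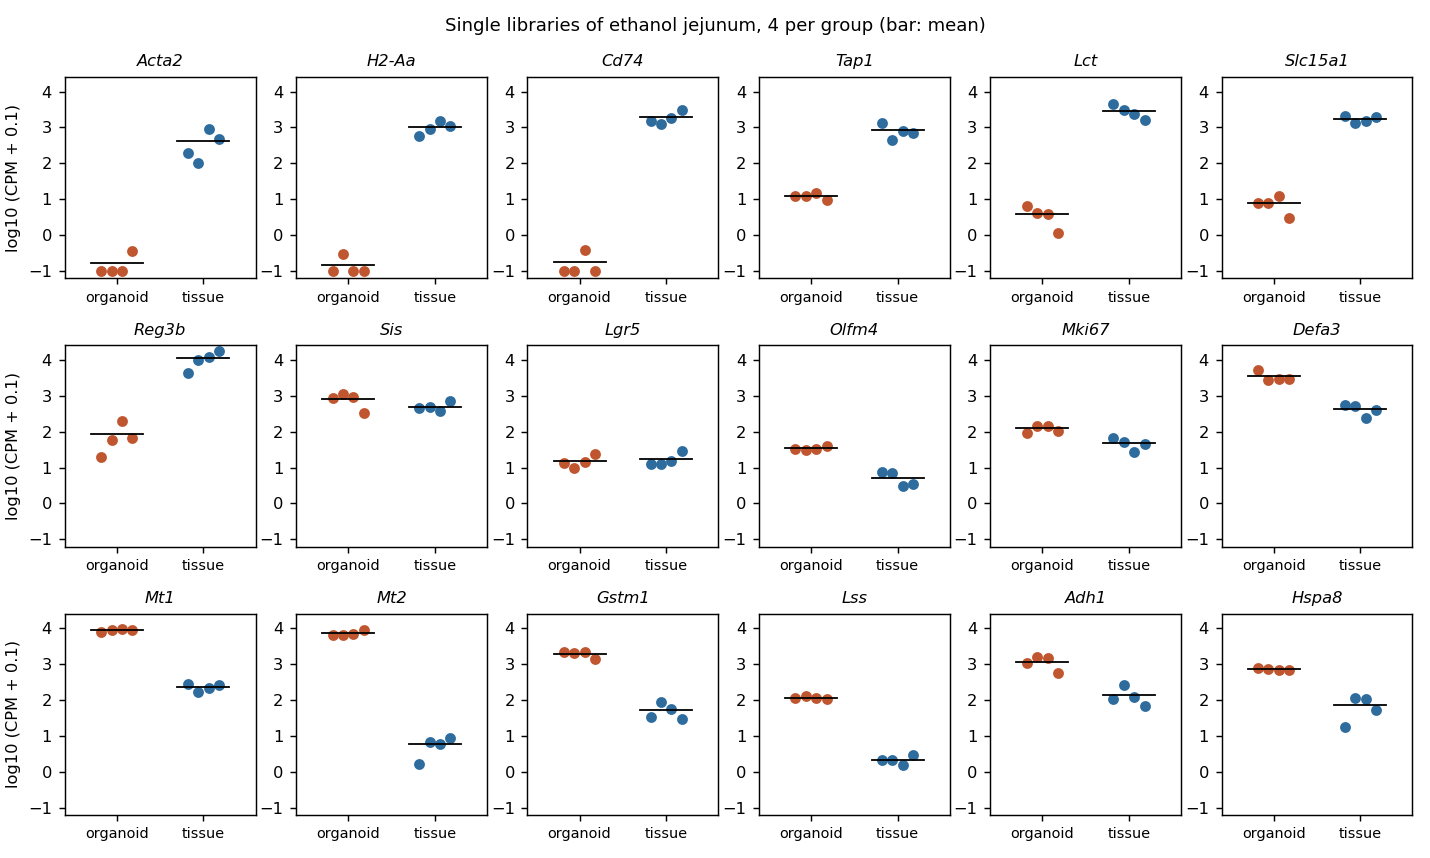
Level of 18 genes in each library of ethanol jejunum as log10 of CPM + 0.1, with the organoids on the left and tissue on the right of each panel and the mean as a bar. Sis and Lgr5 overlap between the materials, and the other 16 genes do not.

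Paneth cell genes leaned higher, with 19 of 31 tested members higher and 5 lower. Defa3, one of the alpha-defensins, had 5337, 2806, 2881 and 2864 CPM in the organoids, against 548, 528, 239.6 and 406 CPM in tissue (3.01 ± 0.31). AY761184, another member of that family, went the other way with 511, 233, 228 and 354 CPM in the organoids, against 5414, 2835, 1988 and 4275 CPM in tissue (-3.45 ± 0.36). Gm14851 (-2.65 ± 0.40) was lower too, and Defa5 (3.24 ± 0.46) and Defa17 (1.49 ± 0.27) higher. Alpha-defensin genes are near-identical copies, and the sources used here do not say how reads shared among them were counted, so single members are uncertain. Outside that family, Lyz1, lysozyme, had 1727, 578, 745 and 655 CPM in the organoids, against 1395, 1166, 635 and 1832 CPM in tissue and was not called (edgeR adjusted p = 0.297). Organoid library 1 was its highest culture, and without that library Lyz1 was lower in the organoids (adjusted p = 0.0115). Mmp7, the protease that activates defensins, had 33.2, 11.4, 17.3 and 14.7 CPM in the organoids, against 2.48, 2.92, 0.492 and 1.49 CPM in tissue (3.46 ± 0.49). Ang4, an antimicrobial ribonuclease, had 360.3, 133, 100.1 and 96.8 CPM in the organoids, against 40.7, 66.8, 49.4 and 30.4 CPM in tissue, and the highest value belonged to organoid library 1 (1.89 ± 0.40). Guca2b, the peptide uroguanylin, was lower (-2.21 ± 0.29).

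Of 25 goblet cell genes, 8 were higher and 11 lower, against 34.3% and 33.1% of all genes tested. Muc2, the mucin that forms the gel, had 215, 148, 182 and 186 CPM in the organoids, against 1219, 1775, 2479 and 2647 CPM in tissue (-3.47 ± 0.27). Zg16, a lectin of the mucus, had 284, 184, 248 and 248 CPM in the organoids, against 6846, 10133, 8838 and 8814 CPM in tissue (-5.17 ± 0.25). Tff3, the trefoil peptide that the same cells secrete, had 2231, 1463, 1720.2 and 1759 CPM in the organoids, against 249, 775, 619 and 454 CPM in tissue (1.77 ± 0.30, edgeR adjusted p = 0.000127). The ranges of all 3 were apart, in opposite directions. Fcgbp was lower (-1.71 ± 0.27) with the goblet cell factor Spdef (-1.80 ± 0.23), and Spink4 (1.69 ± 0.26) and Klk1 (3.08 ± 0.49) were higher. Agr2, a disulfide isomerase that mucins need, had 279.8, 277, 240.3 and 233 CPM in the organoids, against 184, 124, 162 and 574 CPM in tissue, and was not called. Without tissue library 4, which held the highest value, Agr2 was higher in the organoids by 0.72 (adjusted p = 0.00532).

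Of 23 tested enteroendocrine genes, 7 were higher and 7 lower, about the shares of all genes tested (34.3% and 33.1%). Gcg, the precursor of GLP-1, had 83.9, 46.2, 62.8 and 74.1 CPM in the organoids, against 9.92, 9.04, 7.13 and 12.4 CPM in tissue (2.78 ± 0.25), and ghrelin, Ghrl, was higher as well (2.36 ± 0.37). Nts, neurotensin, had 27.5, 4.9, 3.57 and 6.19 CPM in the organoids, against 115, 206, 249.9 and 339.7 CPM in tissue (-4.38 ± 0.55), and Pyy, peptide YY, had 2.78, 1.43, 1.19 and 7.999 CPM in the organoids, against 7.93, 16.6, 28.3 and 62.2 CPM in tissue (-3.15 ± 0.63), where organoid library 4 just exceeded tissue library 1. For both hormones, as for Fabp6, tissue libraries 3 and 4 were the highest of their group. The granule proteins chromogranin A and B moved apart, Chga with 36.7, 34.7, 36.04 and 39.996 CPM in the organoids, against 49.1, 46.4, 92.5 and 65.1 CPM in tissue (-0.79 ± 0.22, and -0.37 with adjusted p = 0.107 without tissue libraries 3 and 4), and Chgb with a log2 fold change of 2.81 ± 0.21. Tph1, the enzyme of serotonin synthesis in the gut, was higher with overlapping ranges (7.21 ± 3.08 CPM in the organoids and 2.51 ± 2.65 CPM in tissue), but not called without organoid library 1, 2 or 3 or tissue library 1, 3 or 4, adjusted p up to 0.143, and its log2 fold change of 1.55 was 0.77 without tissue libraries 3 and 4. Insm1, a factor of immature endocrine cells, had 12.5 ± 2.56 CPM in the organoids and 0.601 ± 0.488 CPM in tissue (4.17 ± 0.48). Of 10 tested tuft cell genes, 6 were lower and none higher. Dclk1, the usual marker, had 4.27, 3.68, 5.96 and 4.64 CPM in the organoids, against 23.8, 13.1, 6.64 and 7.76 CPM in tissue (-1.42 ± 0.42), and the taste channel Trpm5 was at 2.68 ± 1.5 CPM in the organoids and 15.1 ± 13.6 CPM in tissue. Ptgs1, also lower in this list, is made by leukocytes too, whose markers were lower in the same libraries, and their part in the tuft cell result was not tested. Of 5 tested M cell genes, Tnfaip2 (-3.69 ± 0.55) and Ccl20 (-2.93 ± 0.68, ranges overlapping) were lower, the others were not called, and the median was -0.25, or 0.04 when scaled by totals.

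Junction genes set how leaky the epithelium is, and the series' title names permeability. Of 23 tested tight junction genes, 4 were higher, 8 lower and 11 not called, with a median of -0.19 that was 0.10 when libraries were scaled by totals alone. Over all genes tested, 34.3% were higher and 33.1% lower. The share lower was close to that in this list and in the list of adherens junctions and desmosomes below. Cldn2, a claudin that forms a pore for cations and water, had 212, 139, 148 and 141 CPM in the organoids, against 86.8, 54.8, 34.7 and 84.6 CPM in tissue (1.30 ± 0.27, edgeR adjusted p = 0.00067). Cldn3, a sealing claudin, had 497, 434, 457 and 448 CPM in the organoids, against 43.1, 119.6, 128 and 122 CPM in tissue (2.14 ± 0.28). Cldn15, the sodium pore of the small intestine, had 708, 634, 627 and 512 CPM in the organoids, against 4534, 2773, 2318 and 2356 CPM in tissue (-2.27 ± 0.25). The first and second were above tissue in every culture and the third below it. Occludin, Ocln, had 60.4 ± 4.26 CPM in the organoids and 115 ± 63.6 CPM in tissue (-0.94 ± 0.30, not called without tissue library 4, adjusted p = 0.0548, and -0.20 with adjusted p = 0.347 without tissue libraries 3 and 4), and the scaffold ZO-1, Tjp1, had 49.7 ± 8.94 CPM in the organoids and 89.95 ± 19.9 CPM in tissue (-0.86 ± 0.20). Of 14 tested genes of adherens junctions and desmosomes, Dsp (-2.79 ± 0.19), Ctnnd1 (-2.71 ± 0.22), Cdh17 (-1.31 ± 0.17), Cdh1 and Mllt4 (not called without tissue library 2 or 3, adjusted p up to 0.0956) were lower, and Pkp2 was higher (not called without organoid library 1, 2 or 3 or tissue library 3, adjusted p up to 0.108). Ctnnb1, which encodes beta-catenin, was not called (-0.39 ± 0.22, called without tissue library 1, adjusted p = 0.0045). The median of this list was -0.21, and 0.09 when scaled by totals. Cdh1, E-cadherin, had 821, 713, 800.3 and 1063 CPM in the organoids, against 1043, 1505, 1407 and 1245 CPM in tissue, with overlapping ranges (-0.61 ± 0.20, adjusted p = 0.0563 without tissue libraries 3 and 4).

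Surface defence was far lower in the cultures for the C-type lectins that microbes and interleukin 22 induce. Reg3b, a lectin against Gram-negative bacteria (chromosome 6, 78370657 to 78373466), had 19.1, 58.6, 193 and 65.5 CPM in the organoids, against 4402, 9896, 12130.3 and 17225 CPM in tissue (-7.03 ± 0.69, edgeR adjusted p = 1.2e-06). Reg3g, its relative against Gram-positive bacteria, had 89.4, 72.1, 138 and 113 CPM in the organoids, against 528, 2166, 2234 and 3279.6 CPM in tissue (-4.32 ± 0.46). Reg3a, a relative of both, had 244, 310.1, 303 and 169.5 CPM in the organoids, against 36.2, 54.5, 74.5 and 84.002 CPM in tissue and was higher (2.03 ± 0.27). Tissue library 1 was the lowest of its group for Reg3b and Reg3g, and lay above every culture. Of the 12 tested genes of the list, 7 were lower, including the oxidase maturation factor Duoxa2 (-5.57 ± 0.50) and the serum amyloid Saa1 (-7.62 ± 0.80), and 2 were higher, Reg3a and Dmbt1 (0.73 ± 0.24, not called without organoid library 2, 3 or 4, adjusted p up to 0.0854). Immediate early genes, which stimulation or handling switches on within minutes, were lower for 12 of 16 tested members, Fos among them (16.1, 10.4, 10.4 and 17.03 CPM in the organoids, against 67.9, 227, 210.3 and 221 CPM in tissue), and 1 was higher, Ier3 (1.05 ± 0.28).

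Genes that protect against metals and oxidants were higher. Metallothioneins bind zinc and copper, and glutathione enzymes conjugate or reduce reactive compounds. Of 25 tested genes of the list of NRF2 and glutathione, 20 were higher and 2 lower, with a median of 2.08. Mt1 had 7973, 8518, 9264 and 8629 CPM in the organoids, against 270.2, 165, 208 and 259.8 CPM in tissue (5.25 ± 0.24, edgeR adjusted p = 4.15e-09). Mt2 had 6533, 6287, 6678 and 8985 CPM in the organoids, against 1.49, 6.42, 5.9 and 8.8 CPM in tissue (10.18 ± 0.42). Mt4 had 34.3, 68.6, 85.2 and 81.3 CPM in the organoids and no count in tissue, so that it was at least 364-fold higher. Every culture was above every tissue library for all 3, and Mt2 was below 10 CPM in each tissue library. Metallothioneins are alike in sequence, and reads shared between them may have been split.

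The promoters of Mt1 and Mt2 hold copies of the metal response element core, TGCACNC or TGCGCNC, which the zinc-sensing factor MTF-1 is known to bind. The 250 bases before each start site are shown with these letters, on either strand, in capitals (RefSeq, GRCm38.p6, 5' to 3' along the gene).
Mt1 (chr8:94178839-94179088, plus strand): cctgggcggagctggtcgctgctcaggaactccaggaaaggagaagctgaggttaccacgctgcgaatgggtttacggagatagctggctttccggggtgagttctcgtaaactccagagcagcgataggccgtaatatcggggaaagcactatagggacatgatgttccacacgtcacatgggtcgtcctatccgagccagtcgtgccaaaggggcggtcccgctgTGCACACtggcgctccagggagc
Mt2 (chr8:94172368-94172617, plus strand): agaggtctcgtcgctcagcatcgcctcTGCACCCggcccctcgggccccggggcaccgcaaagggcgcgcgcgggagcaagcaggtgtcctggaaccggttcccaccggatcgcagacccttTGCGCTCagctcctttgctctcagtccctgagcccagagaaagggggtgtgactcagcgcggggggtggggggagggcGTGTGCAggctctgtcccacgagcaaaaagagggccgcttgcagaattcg
Within these 250 bases Mt2 held 3 copies, beginning 223, 128 and, on the other strand, 50 bases before the start site. Mt1 held 1 there, beginning 23 before it. Bases after these start sites were not searched, so the numbers of copies hold for this window only. Either form was present in 21.4% of all 32851 promoters of this length and in 7 of the 21 genes of the list that matched an entry. The first counts promoter entries and the second genes, which can have more than 1 entry.

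The glutathione transferases followed. Gstm1 had 2152, 1961, 2173 and 1354 CPM in the organoids, against 34.2, 84.6, 56.6 and 29.99 CPM in tissue (5.22 ± 0.35), and Gsta3 had 317, 289.9, 339 and 256 CPM in the organoids, against 5.45, 3.79, 3.2 and 1.79 CPM in tissue (6.53 ± 0.28). Gsta1 (4.38 ± 0.28), Gsta4 (4.84 ± 0.31) and Gstm3 (4.59 ± 0.58) were higher as well, with the reservation that Gsta1 and Gsta2 are near-identical to other copies. Nqo1, the quinone reductase that is the usual readout of NRF2, had 209, 189, 220.1 and 189.7 CPM in the organoids, against 15.4, 15.5, 18.2 and 22.5 CPM in tissue (3.47 ± 0.19), and the heme oxygenase Hmox1 had 15.6, 32.5, 34.8 and 65.03 CPM in the organoids, against 0.496, 0.583, 0.738 and 0.746 CPM in tissue (5.71 ± 0.51). All 4 genes with values per library were apart between the groups. Slc7a11, the cystine importer, was higher (5.58 ± 0.63), and Srxn1 (-0.85 ± 0.29) and Taldo1 (-0.61 ± 0.25) were lower with overlapping ranges. Srxn1 was not called without tissue library 2 or 3, adjusted p up to 0.0704, and Taldo1 was not called without organoid library 2, 3 or 4 or tissue library 2 or 3, adjusted p up to 0.144.

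Enzymes that clear ethanol and its product acetaldehyde were higher for 13 of 20 tested members and lower for 3. Adh1, the main alcohol dehydrogenase (chromosome 3, 138260991 to 138290698), had 1033, 1508, 1441 and 571 CPM in the organoids, against 103, 251, 119 and 69.4 CPM in tissue (3.07 ± 0.40, edgeR adjusted p = 1.37e-05). Aldh2, the mitochondrial enzyme that oxidises acetaldehyde, had 581, 525, 518 and 431 CPM in the organoids, against 17.4, 86.3, 66.9 and 79.2 CPM in tissue (3.02 ± 0.36), and Aldh1b1 was higher by 2.64 ± 0.28. Every culture was above every tissue sample for both genes. Aldh1a1, which makes retinoic acid, had 592, 923, 1095 and 652 CPM in the organoids, against 251, 656, 537 and 335 CPM in tissue, with overlapping ranges (0.87 ± 0.30, not called without organoid library 2 or 3 or tissue library 4, adjusted p up to 0.0967). Its relative Aldh1a3 had 0, 0.204, 0 and 0 CPM in the organoids, against 87.3, 60.95, 33.9 and 91.8 CPM in tissue (-9.62 ± 0.59), and Adh6a (-2.50 ± 0.27) and Aldh3b1 (-1.89 ± 0.29) were lower too. Cyp2e1, the ethanol-inducible cytochrome, was low in both (2.32 ± 0.752 CPM in the organoids and 2.69 ± 1.68 CPM in tissue) and not called. Of 34 tested genes of xenobiotic metabolism, 14 were higher and 14 lower, against 34.3% and 33.1% of all genes tested. Cyp3a11, a major drug oxidase, had 30.1, 109.7, 139.7 and 60.4 CPM in the organoids, against 195, 817, 466 and 312 CPM in tissue (-2.40 ± 0.47), while the carboxylesterase Ces2c was higher (2.95 ± 0.45). Of 13 tested genes of retinoid handling, 1 was higher, Aldh1a1, and 7 were lower, including the cellular retinol carrier Rbp2 (-1.46 ± 0.38).

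Most genes of sterol synthesis were higher. The pathway makes cholesterol from acetate and is switched on by SREBP2 when cells lack sterol. Of 25 genes, 21 were higher and 1 lower, with a median of 1.72. Hmgcs1, the synthase of HMG-CoA, had 859, 866, 923 and 969 CPM in the organoids, against 41.7, 114, 123 and 99.5 CPM in tissue (3.25 ± 0.29). Lss, which closes the rings of lanosterol (chromosome 10, 76531588 to 76557138), had 112, 127, 111 and 105 CPM in the organoids, against 1.98, 2.04, 1.48 and 2.83 CPM in tissue (5.69 ± 0.24, edgeR adjusted p = 2.47e-09). For both genes the cultures varied little among themselves, and none came near a tissue library. Idi1, the isomerase of isopentenyl diphosphate, was higher by 3.49 ± 0.21. GATTGG, the CCAAT box read on the other strand, which the factor NF-Y is known to bind, was found for 12 of the 17 genes of this list that matched a promoter entry. The share over all promoter entries was 14.6%, a count of entries and not of genes, which can have more than 1 entry. It began 63 bases before the start site of Lss, whose 250 upstream bases are shown with the element in capitals, as the gene with the largest fold change of the list.
Lss (chr10:76531355-76531604, plus strand): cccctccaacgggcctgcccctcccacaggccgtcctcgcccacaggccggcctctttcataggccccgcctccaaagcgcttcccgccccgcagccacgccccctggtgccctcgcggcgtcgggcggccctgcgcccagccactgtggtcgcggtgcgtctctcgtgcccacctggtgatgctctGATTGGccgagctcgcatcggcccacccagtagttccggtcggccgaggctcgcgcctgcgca
Fatty acid synthesis moved with it: 11 of 12 tested genes were higher, among them the desaturase Scd2 (1738 ± 76.5 CPM in the organoids and 224 ± 18.6 CPM in tissue, 2.95 ± 0.18) and Fasn (1.79 ± 0.22), the fatty acid synthase. Thrsp, a lipogenic factor of liver and fat, had no count in the organoids and was at least 78.1-fold lower.

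Sugar breakdown and the response to low oxygen were higher, with 18 of 21 tested genes higher and 1 lower. Ndrg1, induced under hypoxia, had 839, 873, 745 and 683 CPM in the organoids, against 47.1, 41.997, 56.8 and 68.04 CPM in tissue (3.87 ± 0.21, edgeR adjusted p = 1.24e-08). Car9, the carbonic anhydrase that is a standard target of hypoxia factors, had 255, 197, 175 and 166 CPM in the organoids, against 38.7, 32.4, 23.6 and 32.1 CPM in tissue (2.66 ± 0.21), and Pgk1, a glycolytic kinase, had 1028, 739, 642 and 695 CPM in the organoids, against 45.6, 157, 146 and 96.7 CPM in tissue (2.80 ± 0.33). All 3 were apart between the groups. The platelet type phosphofructokinase, Pfkp, was the lower gene (359 ± 97.3 CPM in the organoids and 639 ± 82.6 CPM in tissue, -0.83 ± 0.21).

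Ribosomal protein genes were higher for 31 of 34 members and lower for none, with a median of 1.99. Rpl5 had 1159.5, 941, 1050.4 and 963 CPM in the organoids, against 24.3, 81.7, 53.4 and 52.7 CPM in tissue (4.27 ± 0.31), and Rps20 had 4067, 3914, 4206 and 4014 CPM in the organoids, against 1249, 1075, 1073 and 1847 CPM in tissue (1.63 ± 0.22). Rplp1 was not called (2049 ± 300.4 CPM in the organoids and 2139 ± 543 CPM in tissue). These genes also have processed copies, so single values are uncertain. They are short, and length moved with the result over all genes: the median log2 fold change was 0.79 for the 136 genes with a median transcript length up to 500 bases, 0.63 for 844 genes of 500 to 1000 bases, 0.29 for 2583 genes of 1000 to 2000, 0.06 for 4346 genes of 2000 to 4000 and -0.22 for 2616 longer genes. The part of length in the ribosomal protein result was not tested. Of 33 nuclear genes of oxidative phosphorylation, which include many short ones, 21 were higher, such as Cox6c (1.31 ± 0.21) and Atp5j (3.22 ± 0.30), and 1, Atp5a1, was lower (-0.51 ± 0.21, not called without organoid library 2, 3 or 4 or tissue library 1 or 4, adjusted p up to 0.0912). Among 9 tested heat shock chaperones, 5 were higher (3 when scaled on the pan-epithelial list) and none lower, against 34.3% and 33.1% of all genes tested. Hspa8, the constitutive member of the HSP70 family, had 756, 708, 664 and 679.7 CPM in the organoids, against 17.9, 114, 108 and 50.6 CPM in tissue (3.26 ± 0.42).

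**Figure D4:**
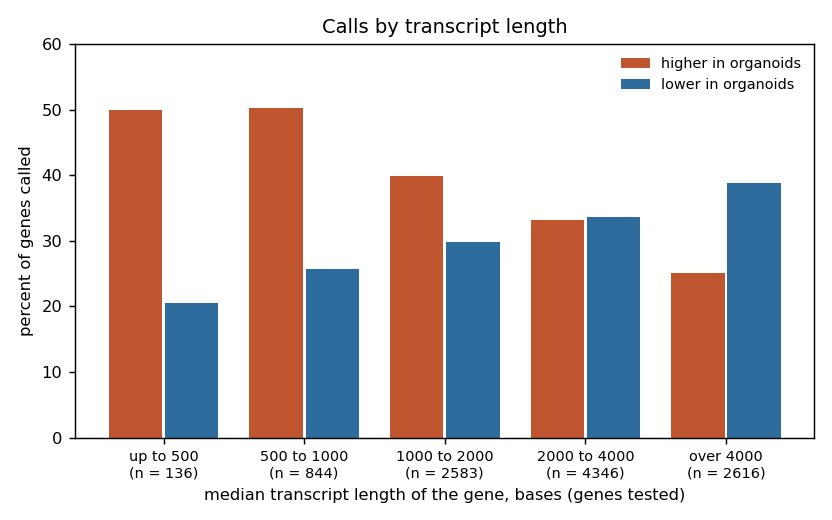
Percent of the tested genes called higher or lower in the organoids, by the median transcript length of the gene in bases (GENCODE annotation of GRCm38). The share called higher is 50% for genes of up to 500 bases and 25% for genes over 4000 bases, while the share called lower is 20.6% and 38.8%.

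The organoid-tissue difference in ethanol jejunum was compared with that in control jejunum, which shares no library with it. The control tissue libraries were shallower, with 684906 to 1510057 counts outside Rn45s. In a fit of all 15 jejunum libraries with 12236 genes, edgeR called 0 genes (0%) as different in their gap between the treatments, 1176 had an unadjusted p under 0.05, and the smallest adjusted p was 0.081. By limma-voom the count was also 0, with 1125 genes at an unadjusted p under 0.05. Without ethanol tissue library 1, edgeR called 4 genes, and without control tissue library 2, it called 1. In the same fit 3883 genes were higher in organoids with ethanol and 4174 in controls, and 3419 were higher in both, which is 88.1% of the ethanol list and 81.9% of the control list. Of the 4321 lower genes with ethanol, 3648 (84.4%) were also lower in controls, or 93.6% of the 3899 lower in controls, and 5 genes were called in opposite directions. Across genes, which are not independent replicates, the log2 fold changes of the treatments correlated with r = 0.930.

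For single genes the treatments are set side by side. Mt1 had 8678 and 229 CPM in ethanol organoids and tissue, against 7014 and 338 CPM in control organoids and tissue, a difference of the log2 fold changes of 0.87 ± 0.35. For Lct the log2 fold change was -9.48 with ethanol and -9.25 in controls (difference -0.23 ± 0.60). For Lgr5 it was -0.22 with ethanol and 1.12 in controls (difference -1.34 ± 0.64), and for Adh1 3.07 with ethanol and 2.89 in controls (difference 0.18 ± 0.64). For Reg3b it was -7.03 with ethanol and -7.09 in controls (difference 0.06 ± 1.35). None of these 5 differences passed the test. The smallest p-values for a higher log2 fold change with ethanol than in controls belonged to Gpatch2, Abcc2, Fzd6, Dis3l and Mir544. The last is a microRNA gene, for which no value is given. Those for a lower log2 fold change belonged to Eif2b1, Htra2, Tmem107, Cdk4 and Acsm3. The sign does not give the size of the gap: Gpatch2 had -0.96 with ethanol and -2.27 in controls, and Eif2b1 had 2.48 and 6.93. Abcc2, an exporter of conjugated bile pigments and drugs, had 145 ± 30.9 and 114 ± 43.2 CPM in ethanol organoids and tissue, against 108 ± 11.2 and 199 ± 51.4 CPM in control organoids and tissue (edgeR adjusted p = 0.217). Cdk4, a kinase of the G1 phase, had 147 ± 10.7 and 31.6 ± 9.3 CPM in ethanol organoids and tissue, against 158 ± 19.97 and 8.1 ± 4.45 CPM in control organoids and tissue (edgeR adjusted p = 0.081). Neither passed the threshold. Over the lists, the medians were for the cell cycle 1.77 with ethanol and 2.53 in controls, for digestive enzymes -3.01 with ethanol and -3.07 in controls, and for ribosomal proteins 1.98 with ethanol and 2.50 in controls. Some lists differed more, in both directions. The medians with ethanol and in controls were -9.33 and -7.43 for class II, and -3.24 and -1.14 for B and plasma cells. For adipocytes and mesothelium they were -6.48 and -9.66. No member of these lists was called as different.

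**Figure D5:**
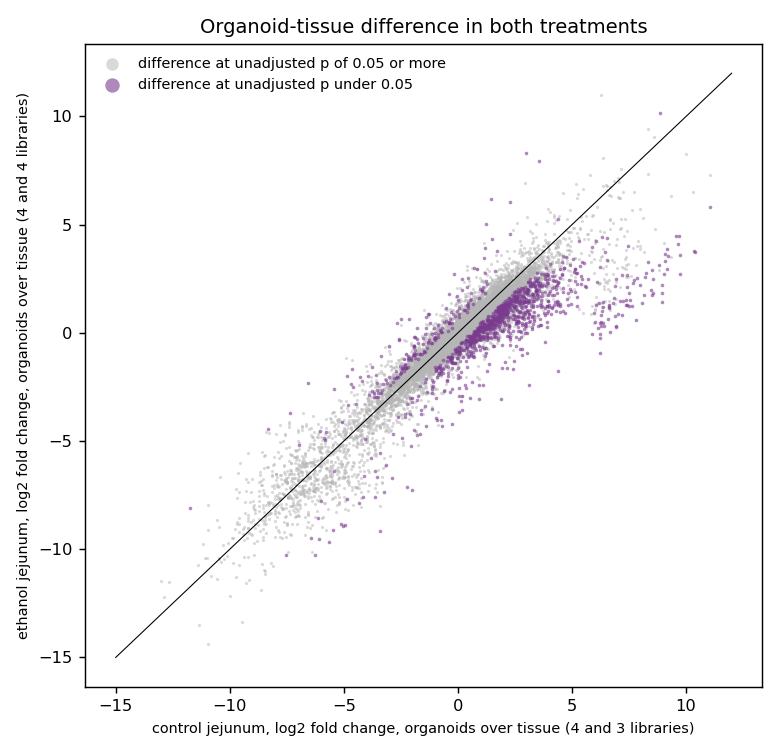
Log2 fold change of organoids over tissue for 12236 genes in ethanol jejunum (vertical axis) and control jejunum (horizontal axis), with the line of equality. Genes whose difference had an unadjusted p under 0.05 (1176) are purple, and none passed after adjustment.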

How the data were processed

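The deposited table gives whole read counts for each gene, which per the submitters' processing notes (Trimmomatic 0.32, BWA, HTSeq, limma, edgeR, build mm10) came from QuantSeq 3' libraries. The strand setting and the handling of reads shared by gene copies are not given in the sources used here. A normalized table that the authors deposited holds a log-like score of unstated definition and served 1 alternative only. The 23419 genes of the count table without Rn45s were filtered by expression per group, scaled by TMM and tested in edgeR 4.0.16 (R 4.3.3) with the quasi-likelihood test, two-sided, with Benjamini-Hochberg adjustment over all 11135 genes kept; glmTreat tested against 2-fold. The interaction used the 15 jejunum libraries. Alternatives used limma 3.58.1 and DESeq2 1.42.0, other scalings, no filter, thinning, a replicate block and leaving out libraries; leaving out tissue libraries 3 and 4 together, and the Rn45s share without each library, were chosen after seeing the data. The procedure was tested on simulated counts. The labels give separate donor numbers within a group but do not describe the animals or cultures behind them. The p-values measure the spread between these libraries, and the technical part of that spread is not known.

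The libraries compared and the 55 gene lists were chosen with earlier results of these data known, so no list count is independent support. Named genes were, by rule, the 10 largest changes each way among called genes with ranges apart and at least 50 CPM, up to 4 called members per list and direction, members against their list's direction, a list of markers and the 5 smallest interaction p-values each way. Of 242 genes named, 76 lie outside that rule and were chosen after their values were seen. Some genes that meet the rule are not reported here. Members without a test are those under the filter. Promoters came from RefSeq (GRCm38.p6), gene coordinates and lengths from the annotation of GRCm38. Colon libraries were not analysed here except in 1 alternative. Intervals and floors (3 counts over a group) cover counting error only.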

Additional observations from a re-analysis of the deposited data

Results flagged for a closer look

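For 40 of 474 groups of 4 values examined, the highest or lowest library lay apart from the other 3 by Dixon's criterion, which chance alone meets in about 1 of 20 groups. That rate does not hold for genes at a few counts, since a group with counts in 1 library only always meets the criterion. Acta2, Tnfrsf19 and Uchl1 in the organoids were such groups. Values are CPM. Organoid library 1 accounted for 14 of these: 2610528A11Rik (96.1), Ada (10.02), Ang4 (360.3), Cdh17 (873), Chac1 (53.8), Cldn2 (212), Defa17 (5007), Defa3 (5337), Ihh (89.98), Lyz1 (1727), Nts (27.5), Saa1 (0.371), Tnfaip2 (11.1) and Uchl1 (0.186). They include the Paneth cell genes Lyz1, Ang4, Defa3 and Defa17, for which it was the highest culture. Organoid library 4 accounted for 9: Abcc3 (68.6), Acta2 (0.258), Bmp4 (0.258), Gsta1 (2069), Mt2 (8985), Npc1l1 (66.3), Pcna (72.3), Smoc2 (244) and Tnfrsf19 (0.516). In organoid library 2 they were Aldh1a3 (0.204), C1qa (0.204) and H2-Aa (0.204), and in organoid library 3 Cd74 (0.298), Col1a1 (0.596) and Igj (0.298), each from few counts. In tissue library 1 they were Cldn3 (43.1), Fos (67.9) and Ptprc (5.45), all the lowest of their group. In tissue library 2 they were Ciita (5.25), Gstm3 (109) and Trpm5 (35.6), in tissue library 3 Apol9b (144), and in tissue library 4 Agr2 (574), Eda2r (0.149), Nr1h4 (32.8) and Slc51a (1803).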

How the results depend on the processing

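Of 236 named genes with a test under 20 alternatives, 4473 of 4635 values kept direction and side of the threshold, 108 lost the call, 19 gained it and 35 turned sign, the last for genes not called by the main test, apart from Fabp6. No gene that the main test called was called in the opposite direction by an alternative. Agr2 and Csrp1 were not called by the main test and had a negative sign there. Without tissue libraries 3 and 4 both were called as higher (edgeR adjusted p = 0.0139 and 0.000599), and Agr2 also without tissue library 4. Genes higher and lower numbered 3255 to 4003 and 3534 to 3999 without 1 library, 3556 and 3877 with RLE factors, 3552 and 4014 in DESeq2, 4003 and 3636 in limma-voom, 3426 and 4613 with all 27 libraries, and 2826 and 2732 of 8848 genes in limma on the authors' normalized table, whose scale differs. Without the filter on low counts, 3209 genes were lower by more than 2-fold, against 1989, since 17050 genes were then tested. The test of the difference between treatments then called 3 genes, and 0 to 4 without 1 library. The Rn45s gap was -43.0 to -33.9 percentage points without 1 library. The donor numbers did not pair the libraries (correlations of same-numbered libraries -0.068 to 0.105, with 1 of 4 organoid and 2 of 4 tissue libraries closest to their own number), and with them as a replicate block 3776 genes were higher and 3489 lower, 1822 and 1921 by more than 2-fold, and 0 differed between treatments (724 at an unadjusted p under 0.05). Signs turned in limma on the authors' normalized table for Agr2 (0.0917), Ccl25 (0.000474), Ccnd1 (0.00871), Cdkn1a (0.00876), Csrp1 (0.0908), Ctnnb1 (0.0146) and Rplp1 (0.0544); with libraries thinned to equal totals for Agr2 (0.00671), Csrp1 (0.00358) and Lgr5 (0.0202); with library totals alone for Agr2 (0.27), Ccnd1 (0.131), Cdkn1a (0.113), Csrp1 (0.226), Cyp2e1 (0.12), Lgr5 (0.0786) and Rplp1 (0.21); in limma-voom for Agr2 (0.262), Csrp1 (0.188) and Cyp2e1 (0.262); with the replicate block for Agr2 (0.279) and Csrp1 (0.259); without tissue libraries 3 and 4 for Agr2 (0.745), Birc5 (-0.0897), Ccnd1 (0.0452), Csrp1 (1.32), Fabp6 (1.32) and Lgr5 (0.288). Over the fits without 1 library, the sign turned in at least 1 for Agr2 (-0.258 to 0.718), Csrp1 (-0.346 to 0.48), Cyp2e1 (-0.614 to 0.231), Lgr5 (-0.584 to 0.162) and Rplp1 (-0.251 to 0.13). The cause was not tested. Of 162 list medians under other scalings, 21 moved by more than the spread between libraries. Depth limits genes at a few counts, and the part of the shallower control tissue in the test of the difference was not tested.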

Other observations

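Gene groups that no paragraph above describes are given here by their values, and their counts stand against 34.3% higher and 33.1% lower over all genes tested. Of 14 tested genes of the unfolded protein response and its ATF4 branch, 8 were higher in the organoids (4 when scaled on the pan-epithelial list) and 2 lower (values with ± in parentheses are log2 fold changes of organoids over tissue with their standard error). Asns, which makes asparagine and is switched on by the factor ATF4, had 245, 206, 160.2 and 133 CPM in the organoids, against 8.93, 4.96, 8.61 and 15.2 CPM in tissue (4.25 ± 0.31), and Chac1, which degrades glutathione, had 53.8, 26.6, 22.9 and 25.8 CPM in the organoids, against 0, 0.875, 0.492 and 1.04 CPM in tissue (5.44 ± 0.47). Of 14 tested p53 targets, 8 were higher and 5 lower: Eda2r (5.31 ± 0.76) and Gdf15 (3.21 ± 0.39), a stress hormone, were higher, while Cdkn1a, the cell cycle inhibitor p21, had 368, 301, 251 and 221 CPM in the organoids, against 221, 388, 366 and 308 CPM in tissue and was not called (-0.17 ± 0.22). Of 15 tested genes of fetal-like and regenerating epithelium, 3 were higher and 6 lower, and the markers Ly6a, which encodes Sca-1 (5.84 ± 2.84 CPM in the organoids and 26.7 ± 7.04 CPM in tissue), and Clu, clusterin (8.08 ± 4.97 CPM in the organoids and 10.7 ± 5.41 CPM in tissue, not called), were not higher in the organoids. Anxa1, annexin 1 of the same list, had 1.67, 5.31, 4.17 and 4.39 CPM in the organoids, against 2.48, 0.583, 1.48 and 4.77 CPM in tissue (0.63 ± 0.56, not called).

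The circadian clock, which feeding times set in the gut, had 6 of 17 tested genes higher and 7 lower, near the shares of all genes, and the median of -0.25 was 0.05 when scaled by totals. Arntl, the activator BMAL1, had 15.2, 13.5, 14.9 and 11.6 CPM in the organoids, against 71.4, 90.99, 137 and 152 CPM in tissue (-3.04 ± 0.25), and Dbp, an output gene that the activator drives, had 12.4, 8.99, 10.1 and 13.7 CPM in the organoids, against 0.496, 1.17, 0.738 and 1.04 CPM in tissue (3.59 ± 0.41). The ranges were apart for both, in opposite directions, and the labels give no time of day. Of 24 tested genes of fatty acid oxidation and ketogenesis, 9 were higher and 9 lower (median -0.03, or 0.26 when scaled by totals): Acot1, an acyl-CoA thioesterase, had 80.1, 67.01, 60.8 and 45.4 CPM in the organoids, against 6.94, 3.5, 0.984 and 1.19 CPM in tissue (4.6 ± 0.44). Of 17 tested genes of segment identity, 3 were higher, Hnf4a (1.49 ± 0.26), Cdx1 and Cdx2, and 8 lower, including Gata5 (-2.77 ± 0.19), while Gata4, the factor of the proximal small intestine, was not called (122 ± 25.5 CPM in the organoids and 156 ± 23.3 CPM in tissue). Of 6 tested genes of bile acid transport and sensing, Abcc3 (2.21 ± 0.22) and Nr1h4 (1.29 ± 0.35) were higher, and Slc51a and Slc51b were lower. Fabp6 was called as lower (-7.20 ± 2.35, edgeR adjusted p = 0.0314), but not called without organoid library 1, 2, 3 or 4 or tissue library 3, adjusted p up to 0.0809, nor with the replicate block (adjusted p = 0.138) or in limma-voom (adjusted p = 0.444), and its log2 fold change was 1.32 without tissue libraries 3 and 4. The bile acid exporter Slc51b had 12.1, 9.4, 5.96 and 4.64 CPM in the organoids, against 12.9, 77.3, 93.7 and 79.2 CPM in tissue (-3.02 ± 0.48). Tissue library 1 lay next to the cultures, and the other tissue libraries far above them.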
